A study of Drosophila melanogaster with 18 samples.

Results

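The RNAs described here are 113 long non-coding RNAs (lncRNAs) of Drosophila melanogaster, those detected best in rRNA-depleted, strand-specific total RNA of DL1 cells. They are the genes whose FlyBase symbol begins with "lncRNA:", lncRNA:CR45348 apart, and they were selected on their measured level, a mean of at least 1 CPM over all 18 libraries (CPM, the counts-per-million scale of the library total). Of 17753 genes listed, 1898 are lncRNAs by symbol; 113 of them (5.95%) reached the level, 1784 lay under it, and of these 835 had no count in any library. Their presence and mean level are therefore a description. The 3 nearest above the level were lncRNA:CR45398 and lncRNA:CR45168 at 1.03 CPM and lncRNA:CR44784 at 1.06 CPM, and the 3 nearest below it were lncRNA:CR44070 at 0.997, lncRNA:CR46095 at 0.991 and lncRNA:CR32690 at 0.984 CPM.

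Long non-coding RNAs are RNA polymerase II transcripts without a long reading frame. Some act as RNA, such as the roX RNAs that guide the dosage compensation complex on the male X chromosome of flies, while others are the precursors of microRNAs or accompany a neighbouring coding gene. Integrator is a metazoan complex bound to RNA polymerase II that holds an RNA endonuclease module and a bound phosphatase, protein phosphatase 2A (PP2A). It cleaves nascent RNA at small nuclear RNA genes and ends transcription early at many other genes, whereas PP2A also acts apart from Integrator.

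DL1 is a cultured Drosophila line, labelled wild type, and each library came from cells kept for 3 days at 25 °C after double-stranded RNA (dsRNA) was added to the medium to silence a gene, or after a mock treatment. The groups were IntS4 dsRNA, against a subunit of the cleavage side of Integrator; IntS6 dsRNA, against a subunit of its phosphatase side; mts dsRNA, against the catalytic subunit of PP2A; Pp2A-29B dsRNA, against its scaffold subunit; B-gal dsRNA, a control sequence; and Mock, without dsRNA. The amount of dsRNA was 2 μg, and every group had 3 libraries, from biological replicate sets A, B and C. The question was how depletion of Integrator or PP2A subunits changes the transcriptome.

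Levels below are CPM after TMM scaling (a library factor that evens out the bulk of genes), and a gene is called when the adjusted p of edgeR's quasi-likelihood test, over all 8699 genes tested, is under 0.05. All 113 lncRNAs passed the filter on low counts. All 4 dsRNA comparisons share the same 3 B-gal libraries, so they are not independent of one another. In these bulk samples, fewer cells that make an RNA and less RNA per cell cannot be told apart.

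Library totals ran between 13445318 and 19298644 counts, of which ribosomal RNA genes took 65.05 to 74.83%; the lncRNAs held 24019 to 44169 counts per library. The rRNA share differed between groups, at 73.03 to 74.83% in mts libraries against 66.33 to 71.75% in B-gal libraries. The PP2A targets fell in their own groups: mts was lower in mts libraries (log2 fold change −1.23 against B-gal) and Pp2A-29B lower in Pp2A-29B libraries (−1.78). The Integrator targets rose instead, each to its highest mean in the group named for it. IntS4 counts were higher in the libraries labelled IntS4 (98.8 against 12.1 CPM, log2 3.02) and IntS6 counts higher in those labelled IntS6 (83.9 against 29.8 CPM, log2 1.50). Gene counts do not separate mRNA from any reads of the added dsRNA, and the source of the rise was not tested. These 2 groups are therefore called IntS4-labelled and IntS6-labelled throughout, and counts cannot show the depletion there. Blood cell markers moved with the groups. Of 10 plasmatocyte markers, 8, 9, 6 and 4 rose in IntS4-labelled, IntS6-labelled, mts and Pp2A-29B libraries and none fell. Their summed levels were 993 to 1410, 1000 to 1300, 581 to 673 and 494 to 572 CPM, against 325 to 356 CPM in B-gal libraries. A large part of the IntS4-labelled and IntS6-labelled sums is the gene Hml, at 609 and 601 CPM against 2.86 CPM in B-gal libraries. Hml rose in each group (log2 7.72, 7.70, 5.32 and 4.46). It was lower in mts and Pp2A-29B than in IntS6-labelled libraries (log2 −2.38 and −3.24). The gap in these sums between Integrator-labelled and PP2A groups therefore rests largely on Hml. Of 4 lamellocyte markers, 2, 2, 4 and 4 rose, with sums of 368 to 416, 225 to 290, 486 to 865 and 278 to 439 CPM, against 107 to 147 CPM in B-gal libraries. Crystal cell markers summed to 23.4 to 26.8, 7.66 to 13.2, 0.836 to 1.13 and 1.52 to 2.84 CPM, against 0.835 to 1.19 CPM in B-gal libraries. Most of these sums is the gene peb, at 24.8, 9.33, 0.795 and 1.71 CPM, against 0.743 CPM in B-gal libraries. Only peb and lz, 2 of the 4 crystal cell markers, could be tested, and 1, 2, 0 and 1 of them rose. PPO1 and PPO2 were too low to test. Neuron, muscle and fat body markers summed to at most 29.1, 4.67 and 2.58 CPM in any depletion library against at most 19.9, 0.501 and 0.454 CPM in B-gal libraries. The ovarian somatic gene tj averaged 72.4, 87.6, 32.8 and 46.7 CPM in the 4 groups, against 157 CPM in B-gal libraries, a fall in each, while the yolk protein gene Yp1 was at 0 in 17 of the 18 libraries. The part of these cell type differences in the lncRNA results was not tested.

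The lncRNA output of these cells was concentrated in a handful of genes. The 113 lncRNAs held 95.55% of all counts on lncRNA genes, and their median level was 3.15 CPM; 28 reached 10 CPM and 36 lay between 1 and 2 CPM. The roX1 gene alone took 25.5% of the counts on the 113, and the first 5 genes took 62.02%. Those 5 were roX1, CR42862, Hsromega, CR34335 and CR40469, at 542, 298, 232, 154.5 and 97.8 CPM over the 18 libraries. Per kilobase of annotated exon the order changes: the short RNAs CR40469 (457 CPM per kb) and CR34335 (428) came first, ahead of roX1 (99.2), CR32368 (96.0), CR44138 (64.6), CR42491 (62.9) and CR42862 (54.4), while Hsromega, with 21710 bases of exon, had 10.7 CPM per kb. Exon lengths ran between 201 and 21710 bases with a median of 882, and 65 of the 113 have a single exon block. On the genome, 26 lie on X, 23 on 2L, 17 on 2R, 22 on 3L, 23 on 3R and 2 on chromosome 4.

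**Figure D1:**
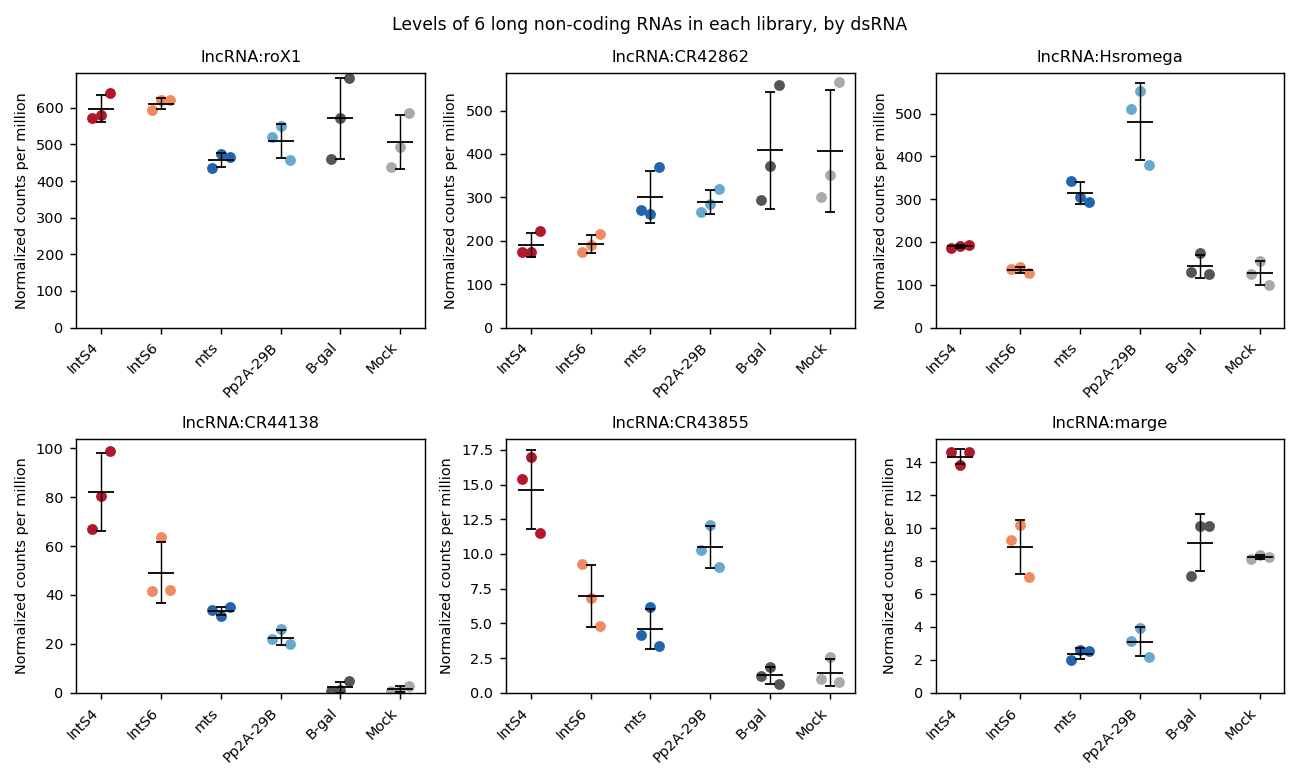
TMM-normalized CPM of 6 lncRNAs in each of the 18 libraries (y axis, from 0) by dsRNA group (x axis, named as labelled). Points are replicate sets A, B and C from left to right, horizontal marks are means and bars are SD (n = 3). Hsromega is highest in the Pp2A-29B libraries, CR44138 lies above 19 in all 12 depletion libraries against at most 4.84 in the controls, and CR42862 is lowest in the IntS4-labelled and IntS6-labelled libraries.

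No lncRNA was called between the 2 control groups. B-gal libraries against Mock libraries gave 0 lncRNAs called higher (0% of all genes tested were) and 0 called lower (0%), with log2 fold changes between −0.62 and 1.09 and a median of 0.11 (0.00 over all genes). Over the 8699 genes neither edgeR nor DESeq2 made a call (0 each), and 243 genes with edgeR and 198 with DESeq2 had a p under 0.05 before adjustment. The control libraries did differ between replicate sets: CR42862 had 295, 372 and 558 CPM in B-gal sets A, B and C and 301, 352 and 566 CPM in the Mock sets of the same letters.

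Against B-gal, the share of the lncRNAs that fell lay above the background of all genes in the PP2A groups. The share that rose lay under it in mts and, by less, in IntS6-labelled libraries, and near it in Pp2A-29B libraries. In IntS4-labelled libraries 32 of 113 rose (28.32%), with 27% of all genes tested called higher, and 23 fell (20.35%), with 20.2% called lower. In IntS6-labelled libraries 22 rose (19.47%) against a background of 26.4% and 19 fell (16.81%) against 19.3%. In mts libraries 18 rose (15.93%) against a background of 26.6%, and 49 fell (43.36%) against 24.8%. In Pp2A-29B libraries 19 rose (16.81%) against 21% and 36 fell (31.86%) against 17.8%. Most of the 113 have a single exon block. Of all genes tested with 1 exon block, 21.4, 17.7, 18.42 and 14.4% rose in IntS4-labelled, IntS6-labelled, mts and Pp2A-29B libraries, and 13.03, 11.91, 24.54 and 14.8% fell. The median log2 fold change of the 113 was 0.08, 0.02, −0.46 and −0.27 in the 4 comparisons, against −0.01, −0.01, 0.00 and −0.01 over all genes. These counts and medians are descriptions of the list, not tests of it.

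The scaling matters for the mts count. With library totals alone the median of all genes moved to −0.28 in mts and −0.11 in Pp2A-29B libraries, and mts libraries then had 12 lncRNAs called higher and 63 lower. Without the rRNA genes in the fit the mts counts were 19 higher and 48 lower. The 92 lncRNAs that were tested but lay under 1 CPM had a median log2 fold change of −0.58 in mts libraries. There 10 were called higher (10.87%, against 26.6% of all genes tested) and 24 lower (26.09%, against 24.8%). In IntS4-labelled, IntS6-labelled and Pp2A-29B libraries 29.35, 16.3 and 11.96% of the 92 rose, against 27, 26.4 and 21% of all genes. In the same order 10.87, 8.70 and 17.39% fell, against 20.2, 19.3 and 17.8%. A control mean of 1 CPM or more was found for 104 of the 113, and among these 26 rose and 23 fell in IntS4-labelled, 17 and 19 in IntS6-labelled, 15 and 47 in mts and 16 and 35 in Pp2A-29B libraries. Called changes of 2-fold or more numbered 21 higher (18.6%, against 16.4% of all genes tested) and 12 lower (10.6%, against 2.45%) in IntS4-labelled and 16 higher (14.2%, against 15.9%) and 8 lower (7.08%, against 1.52%) in IntS6-labelled libraries. In mts libraries they numbered 11 higher (9.73%, against 11%) and 31 lower (27.4%, against 7.85%), and in Pp2A-29B libraries 10 higher (8.85%, against 10.1%) and 20 lower (17.7%, against 3.66%). These 2-fold counts include lncRNAs with a control mean under 1 CPM, which had to be higher elsewhere to be listed. The shares of higher calls are therefore partly set by the choice, and 2-fold counts were not made for the 104 alone. The background of all genes was not matched to the level of the lncRNAs. What part level has in the 2-fold lower shares was not tested.

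**Figure D2:**
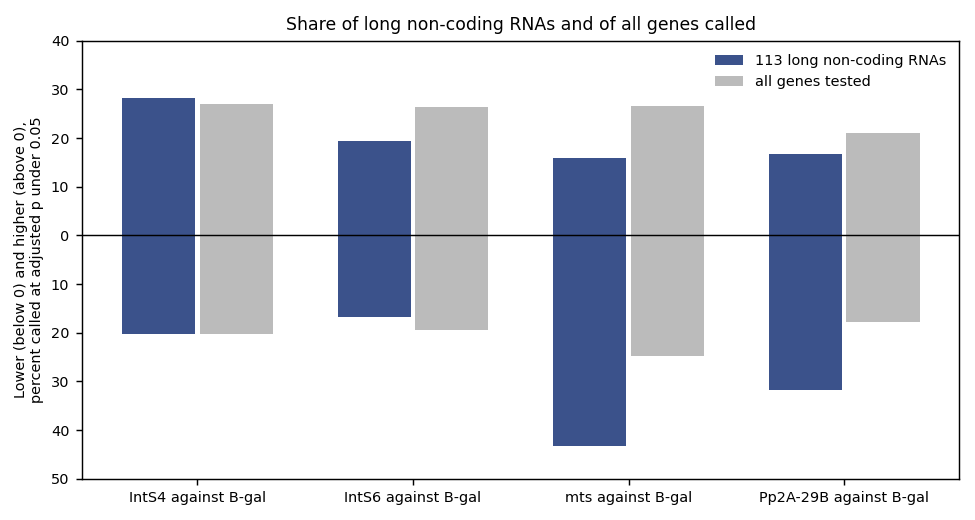
Percent of the 113 lncRNAs (blue) and of the 8699 genes tested (grey) called higher (above 0) and lower (below 0) at adjusted p under 0.05, for each dsRNA group, named as labelled, against B-gal. In mts libraries 43.36% of the lncRNAs fell against 24.8% of all genes, and in Pp2A-29B libraries 31.86% fell against 17.8%.

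Among RNAs with a known function, roX1 stayed within a narrow range while Hsromega rose in both PP2A groups. The roX1 gene (FBgn0019661, X, 3857230 to 3862697, minus strand, dm6) encodes the longer of the RNAs of the dosage compensation complex. It had 573, 581 and 640 CPM in IntS4-labelled, 593, 620 and 622 in IntS6-labelled, 436, 473 and 465 in mts and 520, 550 and 457 CPM in Pp2A-29B libraries, against 460, 573 and 681 CPM in B-gal libraries. The mts libraries lay at the low end and overlapped the controls. The test called roX1 lower in mts libraries (log2 −0.32 ± 0.13, SE, adjusted p = 0.041), but the call was lost without B-gal library B (−0.32) or C (−0.17), without any 1 of the mts libraries (−0.28 to −0.34) and with DESeq2 (−0.30). Its partner roX2 (X, 11579065 to 11580432, plus strand) was scarce, at 2.06 CPM or 1.51 CPM per kb, and its log2 fold changes of 0.09, −0.20, −0.48 and −0.08 did not pass the test. The protein partners of the roX RNAs are the 5 MSL proteins: 2, 2, 4 and 3 of their genes fell in IntS4-labelled, IntS6-labelled, mts and Pp2A-29B libraries and none rose, with msl-1 at 49.3, 52.1, 66.2 and 79.0 CPM against 97.3 CPM in B-gal libraries. Among all genes tested, 20.2, 19.3, 24.8 and 17.8% fell in these groups.

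Hsromega (FBgn0001234, 3R, 21296127 to 21317836, plus strand) is the heat shock RNA that organizes the nuclear omega speckles, where hnRNP proteins gather. It reached 343, 306 and 294 CPM in mts libraries and 510, 553 and 380 CPM in Pp2A-29B libraries, against 131, 174 and 124 CPM in B-gal libraries. Every PP2A library lay above every B-gal library, and the rise was 2.20-fold with mts (log2 1.14 ± 0.16, adjusted p = 8.3e-06) and 3.36-fold with Pp2A-29B dsRNA (log2 1.75 ± 0.16, adjusted p = 1.4e-07). The IntS4-labelled libraries had 187, 190 and 194 CPM, a rise of log2 0.41 that lost its call without B-gal library A (0.35) or C (0.31), without any 1 of the IntS4-labelled libraries (0.40 to 0.42) and with library totals (0.34). The IntS6-labelled libraries had 137, 141 and 127 CPM, inside the range of the controls. Of the genes of 7 omega speckle proteins, 6, 6, 5 and 5 fell in the 4 groups and none rose, where 20.2, 19.3, 24.8 and 17.8% of all genes tested fell. Hrb87F was among them at 66.8, 74.6, 39.1 and 62.6 CPM against 101 CPM in B-gal libraries.

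The flamenco locus, flam (X, 21631891 to 21790731, plus strand), is the main piRNA source of ovarian somatic cells, directed against gypsy-type retrotransposons. It lay at the low end of the list, with 2.55, 2.88 and 2.16 CPM in IntS4-labelled and 3.70, 2.78 and 2.17 CPM in IntS6-labelled libraries, against 0.546, 1.65 and 0.278 CPM in B-gal libraries. Neither control group reached a mean of 1 CPM for flam, so it entered the list through the libraries where it is high, and its log2 differences of 1.60 and 1.79 are a description. B-gal library B decided their size, since without it the values were 2.64 and 2.82, and without library C the IntS4-labelled value was 1.17. It had 0.386, 0.706 and 0.422 CPM in mts and 1.61, 1.32 and 0.388 CPM in Pp2A-29B libraries (log2 −0.71 and 0.41 against B-gal).

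The other lncRNAs with a given name are marge, noe and CRG. The marge RNA (3L, 14976626 to 14977631, minus strand), of a single exon, had 14.6, 13.8 and 14.6 CPM in IntS4-labelled, 9.30, 10.2 and 7.04 in IntS6-labelled, 1.99, 2.61 and 2.53 in mts and 3.15, 3.95 and 2.20 CPM in Pp2A-29B libraries, against 7.10, 10.1 and 10.1 CPM in B-gal libraries. It was high in one Integrator-labelled group and low in each PP2A group: log2 0.65 (adjusted p = 0.0036) in IntS4-labelled, −1.94 (3.5e-07) in mts and −1.56 (4.8e-06) in Pp2A-29B libraries, with no call in IntS6-labelled libraries. For noe, which overlaps the coding gene blot on its strand without sharing an exon base, 5.62, 8.10 and 9.19 CPM in Pp2A-29B libraries stood against 3.82, 4.88 and 4.23 CPM in B-gal libraries (log2 0.82, adjusted p = 0.0071). All annotated exon bases of CRG, a lncRNA known in flies to regulate its neighbour CASK, also belong to CASK, so its counts cannot be told apart from CASK reads.

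The RNAs that rose most were led by CR44138. CR44138 (FBgn0264987, 3R, 13376903 to 13377395, plus strand) is a single exon of 493 bases opposite the coding gene CG9813. It had 67.1, 80.3 and 99.0 CPM in IntS4-labelled, 41.8, 63.6 and 41.9 in IntS6-labelled, 33.9, 31.5 and 34.9 in mts and 22.0, 26.0 and 19.8 CPM in Pp2A-29B libraries, against 0.819, 1.02 and 4.84 CPM in B-gal libraries. Every depletion library lay above every B-gal library, and the fitted rise was 35.7-, 21.3-, 14.5- and 9.82-fold (log2 5.16, 4.41, 3.86 and 3.30, SE 0.41 to 0.42, adjusted p of 6.9e-09, 6e-08, 5.1e-07 and 6.8e-06). B-gal library C held the highest control value, and without it the log2 values were 6.45, 5.71, 5.16 and 4.59. CG9813 on the other strand rose as well, by log2 4.71, 4.77, 4.89 and 4.22. They share no exon base, but whether the counting used the strand is not stated, so intronic reads of CG9813 and reads of CR44138 cannot be told apart.

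CR43855 (FBgn0264437, 2L, 8590370 to 8594489, minus strand) lies opposite Sema1a, a transmembrane semaphorin of axon guidance. It had 15.4, 17.0 and 11.5 CPM in IntS4-labelled, 9.25, 6.85 and 4.81 in IntS6-labelled, 4.18, 6.21 and 3.38 in mts and 10.3, 12.1 and 9.06 CPM in Pp2A-29B libraries, against 1.23, 1.87 and 0.668 CPM in B-gal libraries. Again no depletion library reached down to the controls, and the log2 fold changes were 3.54, 2.47, 1.87 and 3.06 (adjusted p of 2e-07, 2.9e-05, 0.00073 and 4.1e-06). Sema1a itself moved by log2 0.41, 0.22, 0.55 and 1.04, the IntS6-labelled value not called.

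Further lncRNAs that rose had their highest levels in different groups. CR45973, of 3289 exon bases on 3L, had 18.7, 18.7 and 20.3 CPM in IntS4-labelled, 14.5, 19.2 and 12.4 in IntS6-labelled, 25.0, 19.5 and 18.0 in mts and 19.8, 22.3 and 13.6 CPM in Pp2A-29B libraries, against 4.37, 5.73 and 5.01 CPM in B-gal libraries, log2 rises of 1.92, 1.60, 2.05 and 1.87. It shares 456 exon bases with CG13248 on the other strand, and whether the counting used the strand is not stated. CR44316, which starts 326 bases from the start of the mitochondrial translation factor gene mIF3 and runs away from it, had 14.2, 17.4 and 9.97 CPM in mts and 13.3, 13.0 and 10.8 CPM in Pp2A-29B libraries, against 1.36, 2.61 and 1.45 CPM in B-gal libraries. Its rise was log2 2.92 with mts and 2.76 with Pp2A-29B dsRNA and 1.67 and 1.28 in IntS4-labelled and IntS6-labelled libraries, while mIF3 was called in none of the 4 (log2 between −0.03 and 0.19). CR45334 and CR46258 had their highest means in the Integrator-labelled groups. CR45334, a spliced RNA on 2L, had 21.5, 26.3 and 55.9 CPM in IntS4-labelled and 16.6, 16.9 and 25.5 CPM in IntS6-labelled libraries, against 3.21, 3.41 and 9.29 CPM in B-gal libraries (log2 2.69 and 1.87, or 3.38 and 2.56 without B-gal library C). CR46258 lies in ush, whose product is a cofactor of GATA factors in blood cells, and had 14.8, 15.0 and 17.8 CPM in IntS4-labelled and 14.4, 18.7 and 11.4 CPM in IntS6-labelled libraries, against 3.68, 3.29 and 4.01 CPM in B-gal libraries (log2 2.11 and 2.01). It shares 524 exon bases with ush, which is 1 of the 10 plasmatocyte markers and rose by log2 0.55 and 0.58. CR32368, a single exon of 410 bases on 3L, was highest in mts libraries, with 73.5, 75.3 and 68.9 CPM there and 46.5, 47.8 and 44.6 CPM in Pp2A-29B libraries, against 29.5, 25.7 and 18.9 CPM in B-gal libraries (log2 1.56 and 0.91). CR43900, among the 8 highest per kilobase, shares 199 exon bases with the calmodulin gene Cam and had 37.1, 32.3 and 38.3 CPM in mts and 28.2, 25.8 and 29.8 CPM in Pp2A-29B libraries, against 16.8, 17.5 and 14.7 CPM in B-gal libraries. It rose by log2 1.14 and 0.78 there, and Cam by 1.11 and 0.80.

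Both CR45018 and CR43264 were above B-gal in several groups. CR45018, a single exon on X that shares 1433 bases with IP3K2, an inositol trisphosphate kinase gene, had 15.8, 15.7 and 15.9 CPM in IntS4-labelled, 13.0, 11.2 and 16.1 in IntS6-labelled, 5.53, 6.92 and 8.28 in mts and 10.1, 8.43 and 9.39 CPM in Pp2A-29B libraries, against 3.96, 4.77 and 5.23 CPM in B-gal libraries. All 12 depletion libraries lay above the controls (log2 1.75, 1.52, 0.55 and 0.99), though the mts call was lost with library totals (0.26), without mts library C (0.41) and without B-gal library A (0.46). CR43264, a single exon of 318 bases on X opposite CG15765, which was too low to test, had 4.70, 5.27 and 3.17 CPM in Pp2A-29B libraries, against 0.751, 0.681 and 1.11 CPM in B-gal libraries (log2 2.35, adjusted p = 6.6e-05). It also rose in IntS4-labelled (log2 1.65) and mts libraries (1.57), while the IntS6-labelled value of 0.83 was not called.

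**Figure D3:**
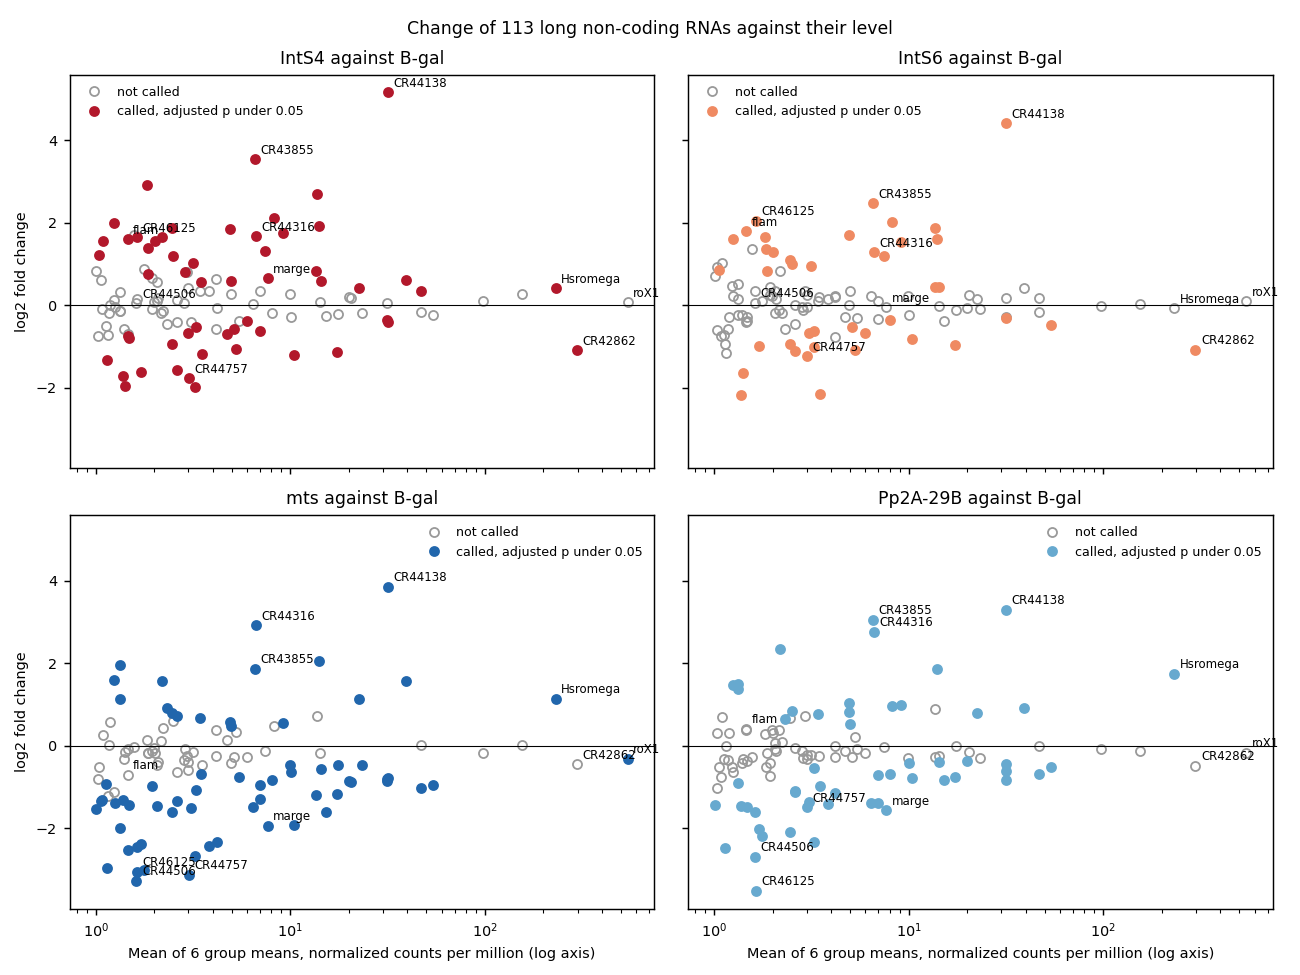
log2 fold change against B-gal (y axis) of the 113 lncRNAs by their level, the mean of the 6 group means in normalized CPM (x axis, log scale), in each dsRNA group as labelled. Filled points passed the test and open points did not. In the mts panel the called points below 0, 49 in number, spread over nearly the whole range of levels, and CR44138 is the highest point in each panel.

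The abundant CR42862 (FBgn0262109, 3L, 224106 to 230964, plus strand) was the only 1 of the 5 most abundant lncRNAs called lower in the Integrator-labelled groups. It had 175, 175 and 223 CPM in IntS4-labelled and 173, 190 and 215 CPM in IntS6-labelled libraries, against 295, 372 and 558 CPM in B-gal libraries. The groups do not overlap, and the fall was to 0.468 and 0.472 of the B-gal level (log2 −1.09 ± 0.23 and −1.08 ± 0.23, adjusted p = 0.00054 and 0.00062). In mts and Pp2A-29B libraries it had 271, 261 and 369 and 266, 284 and 320 CPM, overlapping the B-gal range, and was not called (log2 −0.45 and −0.49). Within each replicate letter the mts and the Pp2A-29B library lay under the B-gal library, and a fit with the letter as a block called both lower (log2 −0.42, adjusted p = 0.0042, and −0.45, adjusted p = 0.0032). It overlaps CG33229 on its strand over 246 exon bases, and CG33229 rose by log2 1.18 and 0.83 in the Integrator-labelled groups.

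The largest falls in the Integrator-labelled groups were among low RNAs. CR44692, a spliced RNA on X, had 0.949, 2.43 and 3.80 CPM in IntS4-labelled and 1.23, 1.29 and 1.18 CPM in IntS6-labelled libraries, against 4.84, 6.19 and 5.45 CPM in B-gal libraries (log2 −1.18 and −2.15). It lies opposite the coding gene CG43658 without a shared exon base. Whether the counting used the strand is not stated, so intronic reads of CG43658 and reads of CR44692 cannot be told apart. CR45352 on 2L, with no coding gene in the position classes used here, had 0.803, 0.455 and 1.25 CPM in IntS4-labelled and 0.280, 0.881 and 0.658 CPM in IntS6-labelled libraries, against 1.84, 2.55 and 3.67 CPM in B-gal libraries (log2 −1.72 and −2.18). All exon bases of CR44097 (log2 −1.96 and −1.64) also belong to CG6000 (−1.90 and −1.59), so the reads of the pair cannot be told apart. The coding gene that ends 799 bases upstream of CR44097, Pisd, whose product makes phosphatidylethanolamine, rose by log2 2.01 and 1.65, and the heat shock gene Hsp68 on the other strand rose by 2.59 and 1.91.

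The largest falls in the PP2A groups took RNAs that were low in the controls close to 0. CR46125 (FBgn0267800, 3R, 8460241 to 8461200, minus strand), a single exon that overlaps CG45263 on its strand without sharing an exon base, had 0.193, 0 and 0.169 CPM in mts and 0.185, 0.0659 and 0 CPM in Pp2A-29B libraries, against 0.546, 1.36 and 1.22 CPM in B-gal libraries. That is 5 and 4 counts in all in the PP2A groups, against 54 in B-gal libraries, and log2 fold changes of −3.06 ± 0.76 (adjusted p = 0.0024) and −3.52 ± 0.78 (adjusted p = 0.0015). Leaving out mts library A gave −3.65 and leaving out Pp2A-29B library A gave −4.72. CR44506, 4982 bases of single exon on 2R, had 0.386, 0.141 and 0.169 CPM in mts and 0.247, 0.659 and 0.194 CPM in Pp2A-29B libraries, against 2.12, 2.38 and 2.67 CPM in B-gal libraries. All PP2A libraries lay under all B-gal libraries, with log2 −3.28 (−3.89 without mts library A) and −2.69 (−3.39 without Pp2A-29B library B), while the Integrator-labelled values of 0.04 and 0.06 were not called. CR46103 on 3R starts 60 bases past the end of CG12516 on its strand. It had 0.386, 0.141 and 0.169 CPM in mts and 0.247, 0.659 and 0.388 CPM in Pp2A-29B libraries, against 1.71, 1.53 and 2.67 CPM in B-gal libraries (log2 −3.01 and −2.19, or −3.62 in mts without library A), and CG12516 fell by log2 3.34 and 3.36. CR44151, a single exon of 422 bases on 2L opposite mtgo, had 0.321, 0.141 and 0.507 CPM in mts and 0.185, 0.264 and 0.906 CPM in Pp2A-29B libraries, against 3.28, 2.38 and 2.00 CPM in B-gal libraries. Its log2 values were −2.98 and −2.48 (−3.46 without Pp2A-29B library C), and mtgo was called in neither.

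Some RNAs fell in every group. CR44757, spliced and overlapping CG13506 on its strand without a shared exon base, averaged 1.75 ± 0.38 CPM in the 3 IntS4-labelled libraries (SD) and had 2.52, 2.71 and 2.37 in IntS6-labelled, 0.450, 0.776 and 0.845 in mts and 1.67, 2.83 and 1.88 CPM in Pp2A-29B libraries, against 5.60, 6.87 and 5.45 CPM in B-gal libraries. No depletion library reached the controls. It was lowest in mts libraries (log2 −3.13, adjusted p = 2e-08), with −1.78, −1.24 and −1.49 in the other 3 groups. CG13506 fell too, by log2 0.94, 0.43, 1.93 and 1.12 in the order IntS4-labelled, IntS6-labelled, mts and Pp2A-29B. Intronic reads of CG13506 and reads of CR44757 cannot be told apart in these counts. CR45566, opposite RpL4, which encodes a ribosomal protein, and mino, an acyltransferase gene, had 0.949, 1.36 and 2.49 CPM in IntS4-labelled, 2.63, 3.05 and 3.75 in IntS6-labelled, 0.707, 1.41 and 0.845 in mts and 1.54, 0.659 and 1.55 CPM in Pp2A-29B libraries, against 4.23, 6.36 and 8.46 CPM in B-gal libraries. Its log2 fold changes were −1.99, −1.02, −2.68 and −2.34, of which the IntS6-labelled one lost its call without B-gal library C (−0.76). It shares 118 exon bases with mino and 10 with RpL4 on the other strand, and whether the counting used the strand is not stated.

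Further lncRNAs were called lower in each of the 4 groups, with some of the calls lost without 1 library. CR45939 shares 2521 of its 2803 exon bases with ftz-f1, a nuclear receptor gene, so its counts can hardly be told apart from ftz-f1 reads. It had 11.2, 12.1 and 13.1 CPM in IntS4-labelled, 13.4, 15.6 and 12.2 in IntS6-labelled, 12.2, 13.4 and 9.97 in mts and 15.8, 18.2 and 14.1 CPM in Pp2A-29B libraries, against 19.2, 27.1 and 34.3 CPM in B-gal libraries. No depletion library reached the controls (log2 −1.15, −0.97, −1.18 and −0.75). CR45411, a single exon of 315 bases on 3L, had 0.657, 0.809 and 1.51 CPM in IntS4-labelled, 0.841, 1.76 and 2.04 in IntS6-labelled, 0.386, 0.917 and 0.422 in mts and 0.865, 0.922 and 0.453 CPM in Pp2A-29B libraries, against 3.07, 2.67 and 3.45 CPM in B-gal libraries. Its log2 fold changes were −1.62 in IntS4-labelled, −2.39 in mts and −2.02 in Pp2A-29B libraries, and the smaller IntS6-labelled fall lost its call without IntS6-labelled library A (−0.69) or B-gal library C (−0.90). CR44580 starts 705 bases past the end of CG17097, which was too low to test, and was lowest in Pp2A-29B libraries, at 1.05, 0.922 and 1.10 CPM, against 4.91, 3.18 and 5.06 CPM in B-gal libraries. Its log2 values were −0.95, −0.94, −1.60 and −2.09, the IntS4-labelled call being lost without IntS4-labelled library B (−0.75) and the IntS6-labelled one without IntS6-labelled library A (−0.71). CR45531, opposite CG14434, had log2 values of −1.57, −1.12, −1.34 and −1.10, and CG14434 was called in none of the groups. The mts value of CR45531 was −2.23 without mts library C and lost its call without mts library A (−1.03), and the IntS6-labelled call was lost without IntS6-labelled library A (−0.92) or B-gal library C (−0.93). Its Pp2A-29B call was lost without Pp2A-29B library A (−0.99) or B (−1.01) or B-gal library A (−1.07) or C (−0.91).

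The calls of CR44953, CR32027 and CR42549 rested on single libraries in some groups. CR44953, a spliced RNA on 3R, had 2.64, 3.60 and 7.26 CPM in mts libraries, against 12.8, 15.4 and 21.5 CPM in B-gal libraries (log2 −1.92). Its values in IntS4-labelled, IntS6-labelled and Pp2A-29B libraries were −1.20, −0.82 and −0.78. The IntS6-labelled call was lost without IntS6-labelled library A (−0.83) or B (−0.76) or B-gal library C (−0.59), and the Pp2A-29B call without Pp2A-29B library A (−0.60) or B (−0.72) or B-gal library C (−0.55). CR32027 lies opposite Indy, a citrate transporter gene that rose in all 4 groups, and fell in mts libraries by log2 1.07. Its values of −0.54 in IntS4-labelled, −0.62 in IntS6-labelled and −0.54 in Pp2A-29B libraries lost their calls without IntS4-labelled library A or C or B-gal library A or B (−0.44 to −0.50), without IntS6-labelled library C (−0.55), and without Pp2A-29B library A or C or B-gal library A or B (−0.45 to −0.49). CR42549 had 21.5, 26.0 and 22.6 CPM in mts and 22.0, 25.4 and 21.9 CPM in Pp2A-29B libraries, against 31.8, 44.7 and 47.3 CPM in B-gal libraries (log2 −0.82 and −0.84). Its values of −0.36 in IntS4-labelled and −0.31 in IntS6-labelled libraries lost their calls without IntS4-labelled library A or B or B-gal library B or C (−0.25 to −0.37), and without any 1 of the IntS6-labelled libraries or B-gal library B or C (−0.21 to −0.35). The IntS6-labelled one was also lost with DESeq2 (−0.31), and both in fits of only the groups compared (−0.36 and −0.32).

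Of the 9 lncRNAs whose span holds a microRNA on the same strand, 4 rose and 1 fell in IntS4-labelled, 2 rose and 0 fell in IntS6-labelled, 3 rose and 4 fell in mts and 3 rose and 2 fell in Pp2A-29B libraries. Over all genes tested, 27, 26.4, 26.6 and 21% rose and 20.2, 19.3, 24.8 and 17.8% fell in those groups, and 9 RNAs are too few to read a share from. The host of mir-8, CR43650, had 19.1, 21.6 and 18.6 CPM in mts and 25.6, 23.5 and 21.8 CPM in Pp2A-29B libraries, against 27.0, 40.1 and 41.4 CPM in B-gal libraries, so every PP2A library was lower (log2 −0.87, adjusted p = 0.00019, and −0.62, adjusted p = 0.0047). CR43626, which holds mir-282, had 8.76, 9.70 and 7.48 CPM in IntS4-labelled, 7.06, 8.61 and 7.90 in IntS6-labelled, 3.73, 2.89 and 4.22 in mts and 5.93, 4.61 and 4.34 CPM in Pp2A-29B libraries, against 2.18, 2.78 and 2.23 CPM in B-gal libraries (log2 1.85, 1.70, 0.58 and 1.04). All 12 depletion libraries lay above the B-gal libraries, and the mts call was lost with library totals (0.29) and without mts library A (0.55) or C (0.47) or B-gal library A (0.52) or C (0.53). CR43459, host of mir-34 and mir-277, was nearly level: 45.5 CPM in mts libraries against 44.8 CPM in B-gal libraries on average, with a call only in IntS4-labelled libraries (log2 0.34, 0.27 and uncalled with library totals). The hosts of mir-14 (CR43651) and mir-184 (CR44206) fell in mts libraries by log2 0.64 and 0.47. CR43857, host of mir-275, rose in mts and Pp2A-29B libraries by log2 0.48 and 0.53, calls lost with library totals (0.20 and 0.43), without B-gal library B (0.40 and 0.45), and without mts library A (0.41) and Pp2A-29B library C (0.44). CR43836, host of mir-31b, was called lower in IntS4-labelled libraries (log2 −0.68), which was lost without IntS4-labelled library B (−0.70) or C (−0.52) or any 1 B-gal library (−0.62 to −0.72). None of the microRNA genes themselves was tested, their mean levels being at most 0.266 CPM. The snoRNA hosts CR45184 and CR42491 share exon bases with the coding genes Sf3b3 (2508 of 2649 bases) and RpL22 (377 of 747 bases). The counts of CR45184 can therefore hardly be told apart from Sf3b3 reads. These hosts fell in mts libraries by log2 0.96 and 1.03, and those coding genes fell by 0.88 and 0.84. The 2 hosts were also called lower in Pp2A-29B libraries, and 1 of them in IntS6-labelled libraries. Of the 5 genes of the snoRNP core found, 2, 2, 5 and 1 fell in the 4 groups and none rose. Of the nuclear exosome, which degrades many unstable non-coding RNAs, 3, 3, 7 and 4 of 11 genes fell and none rose, and of 6 genes of nonsense-mediated decay 1, 1, 2 and 1 fell and 1 rose in IntS6-labelled libraries. Beside these lists stand the 20.2, 19.3, 24.8 and 17.8% of all genes that fell, and lists this short were not tested as sets.

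Calls were also counted by exon structure. Of the 65 lncRNAs with 1 exon block, 24 rose and 7 fell in IntS4-labelled and 16 rose and 6 fell in IntS6-labelled libraries; of the 48 with more than 1, 8 rose and 16 fell, and 6 rose and 13 fell. Among all genes tested, the 1243 with 1 exon block had 266 higher and 162 lower in IntS4-labelled and 220 and 148 in IntS6-labelled libraries, and the 7381 others 2058 and 1578, and 2054 and 1520. In mts libraries 11 rose and 30 fell of the 65, and 7 rose and 19 fell of the 48, and in Pp2A-29B libraries 12 and 20, and 7 and 16. Among all genes tested, 229 rose and 305 fell of the 1243 with 1 exon block in mts libraries and 2061 and 1829 of the 7381 others, and in Pp2A-29B libraries 179 and 184, and 1627 and 1352. These counts are descriptions without a test of the difference.

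By position, 46 of the 113 overlap a coding gene on the same strand, 24 overlap one on the other strand, 15 start within 1 kb past the end of one, 19 start within 1 kb of a coding start and run away from it, and 31 are none of these (a lncRNA can be in several classes). In that order of classes, 10, 5, 3, 6 and 10 rose and 11, 8, 4, 2 and 4 fell in IntS4-labelled libraries, where 27% of all genes tested rose and 20.2% fell. In IntS6-labelled libraries 8, 3, 1, 4 and 6 rose and 9, 5, 5, 2 and 3 fell, against 26.4 and 19.3% of all genes. In mts libraries 3, 7, 2, 4 and 5 rose and 22, 9, 7, 3 and 17 fell, against 26.6 and 24.8%. In Pp2A-29B libraries 6, 6, 2, 2 and 5 rose and 14, 8, 6, 3 and 13 fell, against 21 and 17.8%. The lncRNAs were then set beside the coding gene they overlap on the same strand. Over 45 such pairs with both members tested, Spearman's rho between their log2 fold changes was 0.67 in IntS4-labelled, 0.58 in IntS6-labelled, 0.40 in mts and 0.49 in Pp2A-29B libraries, a description across genes that share libraries. Of the lncRNAs called in these pairs, 16 of 21, 12 of 17, 15 of 24 and 13 of 19 had a coding gene called the same way. In the 19 pairs that share no exon base rho was 0.72, 0.64, 0.53 and 0.69, and in the 26 pairs with some it was 0.68, 0.42, 0.54 and 0.34. Depletion groups were also set against each other: IntS6-labelled against IntS4-labelled, Pp2A-29B against mts, mts against IntS6-labelled and Pp2A-29B against IntS6-labelled libraries. In that order rho was 0.49, 0.12, 0.06 and 0.19 for the 19 pairs and 0.58, 0.40, 0.73 and 0.77 for the 26. Sharing no exon base does not separate a pair, since intronic reads of the coding gene in total RNA can count toward a lncRNA there. For the 20 pairs on opposite strands rho in the 4 groups against B-gal was 0.07, 0.05, 0.22 and 0.30, and for the 18 divergent pairs −0.04, −0.02, 0.33 and 0.32.

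**Figure D4:**
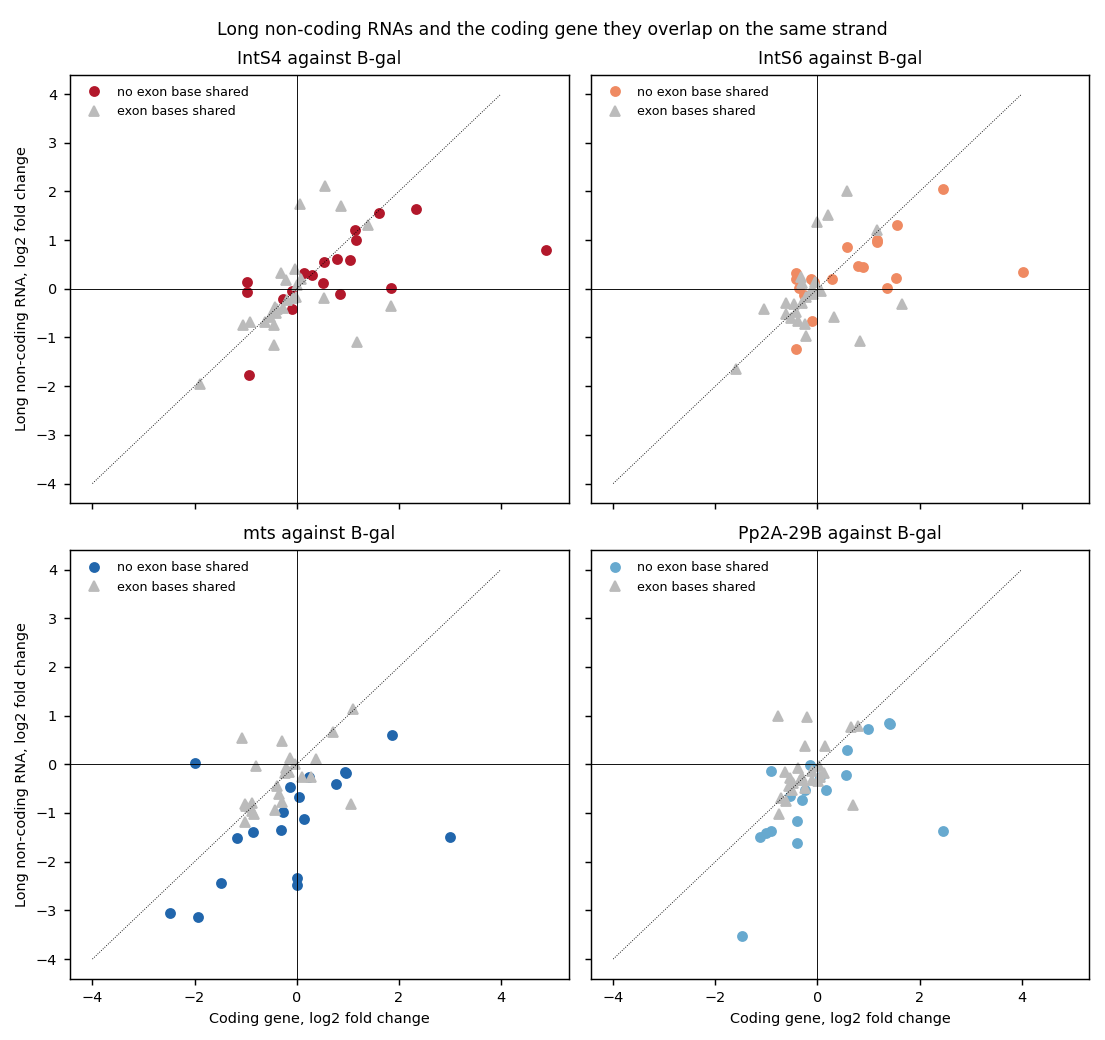
log2 fold change against B-gal of lncRNAs (y axis) and of the coding gene they overlap on the same strand (x axis) for 45 pairs, in each dsRNA group as labelled. Coloured circles are the 19 pairs that share no exon base, grey triangles the 26 that do, and the dotted line marks equal change. Spearman's rho over the 45 pairs is highest in the IntS4-labelled panel (0.67) and lowest in the mts panel (0.40), where CR46125 and CR44757 are the lowest circles.

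The depletions were also compared with one another directly. IntS6-labelled against IntS4-labelled libraries gave 0 lncRNAs higher (background 2.53%) and 5 lower (4.01%). Among the lower ones were CR44417, CR43855, marge and CR44285. CR44417, opposite Mapmodulin, had 2.19, 2.30 and 3.09 CPM in IntS6-labelled against 5.03, 5.31 and 4.13 CPM in IntS4-labelled libraries (log2 −0.94, adjusted p = 0.014), a call lost without IntS4-labelled library A (−0.91) or B (−0.86) or IntS6-labelled library A (−0.84) or B (−0.88). For CR43855 the log2 difference was −1.06 and for marge −0.70. CR44285, with −1.26, reached 1 CPM in the mean of only the IntS4-labelled and IntS6-labelled groups and owes its place in the list mainly to the IntS4-labelled libraries, so its difference is a description. Without 1 of the libraries IntS4-labelled A or B, or IntS6-labelled A, B or C, only 2 or 3 of the 5 calls were made. Pp2A-29B against mts libraries gave 15 lncRNAs higher (background 4.81%) and 2 lower (4.94%), led by CR44757 (log2 1.64) and CR44830 at 2.72, 1.58 and 1.94 CPM in Pp2A-29B against 0.900, 0.635 and 0.591 CPM in mts libraries (log2 1.53, adjusted p = 0.0043). Hsromega was higher in Pp2A-29B than in mts libraries by log2 0.61, a call lost without Pp2A-29B library A (0.57) or B (0.50) or mts library B (0.59) or C (0.57). The 15 calls dropped to 7 without mts library A, Pp2A-29B library A or Pp2A-29B library B and to 9 without mts library B or C, and the 2 lower calls to 0 or 1 without any 1 library. Those 2 were CR43989 (log2 −0.76), whose call was lost with library totals (−0.59) and without any 1 of the 6 libraries (−0.67 to −0.84), and CR32368 (−0.65).

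Of the 4 direct comparisons made, those of a PP2A group with the IntS6-labelled libraries had more calls than the other 2. No comparison of a PP2A group with the IntS4-labelled libraries was made. Comparison of mts against IntS6-labelled libraries gave 16 lncRNAs higher (background 22%) and 55 lower (28.4%), with a median log2 fold change of −0.51 against −0.06 over all genes. With library totals, where the median of all genes was −0.32, the counts were 9 higher and 66 lower, and without IntS6-labelled library A 10 were higher. Pp2A-29B against IntS6-labelled libraries gave 15 higher (17.5%) and 36 lower (24.6%), with a median of −0.27 against −0.04. The lowest value in each was CR46125, at 4.93, 5.76 and 2.57 CPM in IntS6-labelled libraries, with log2 −5.11 for mts (−5.70 without mts library A) and −5.57 for Pp2A-29B (−6.77 without Pp2A-29B library A). Its mean over the control libraries was 0.988 CPM, so it owes its place in the list to its IntS4-labelled and IntS6-labelled levels, and these differences and its log2 of 2.05 in IntS6-labelled libraries against B-gal are a description. Its host gene CG45263 was called in the same directions against B-gal, by log2 2.45 in IntS6-labelled, −2.48 in mts and −1.47 in Pp2A-29B libraries. Intronic reads of CG45263 and reads of CR46125 lie on the same strand and cannot be told apart. CR44692 went in the other direction, at 3.79, 3.67 and 4.56 CPM in mts against 1.23, 1.29 and 1.18 CPM in IntS6-labelled libraries (log2 1.69, adjusted p = 0.00031), and CR44316 followed at log2 1.65. CR44620, a single exon on X, was higher by log2 1.47, and CR44186, which overlaps the respiratory complex I gene ND-15 on its strand without a shared exon base, was lower by −2.80 in mts than in IntS6-labelled libraries.

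A further 3 lncRNAs lay on opposite sides of B-gal in IntS6-labelled and mts libraries, as CR46125 did. CR31044, the host of mir-279 and mir-996, had 4.95, 6.21 and 5.91 CPM in mts libraries, against 19.3, 16.5 and 17.2 CPM in IntS6-labelled and 11.7, 13.9 and 13.4 CPM in B-gal libraries. It rose in IntS6-labelled (log2 0.45, adjusted p = 0.0034) and fell in mts libraries (log2 −1.19, adjusted p = 3.7e-07). The Pp2A-29B libraries, at 10.7, 11.7 and 9.71 CPM, were not called against B-gal (log2 −0.28) and were higher than mts libraries by log2 0.91 (adjusted p = 0.00028). CR46064 on 2R had 10.4, 10.2 and 7.10 CPM in mts libraries, against 19.1, 19.3 and 18.0 CPM in IntS6-labelled and 12.3, 14.8 and 14.3 CPM in B-gal libraries. Of its exon bases 27.71% also belong to exons on the other strand, and whether the counting used the strand is not stated. CR46112 overlaps sima, which encodes the hypoxia-inducible factor alpha subunit, and had 0.578, 0.212 and 0.422 CPM in mts libraries, against 2.47, 1.69 and 1.58 CPM in IntS6-labelled and 1.09, 0.738 and 1.34 CPM in B-gal libraries. Its mean over the control libraries was 0.913 CPM, so it too reached the list through its Integrator-labelled levels. CR46112 and sima lie on the same strand without a shared exon base, so intronic reads of sima and reads of CR46112 cannot be told apart. All 4 were picked for their opposite calls, which fixes the sign of the difference between mts and IntS6-labelled libraries.

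**Figure D5:**
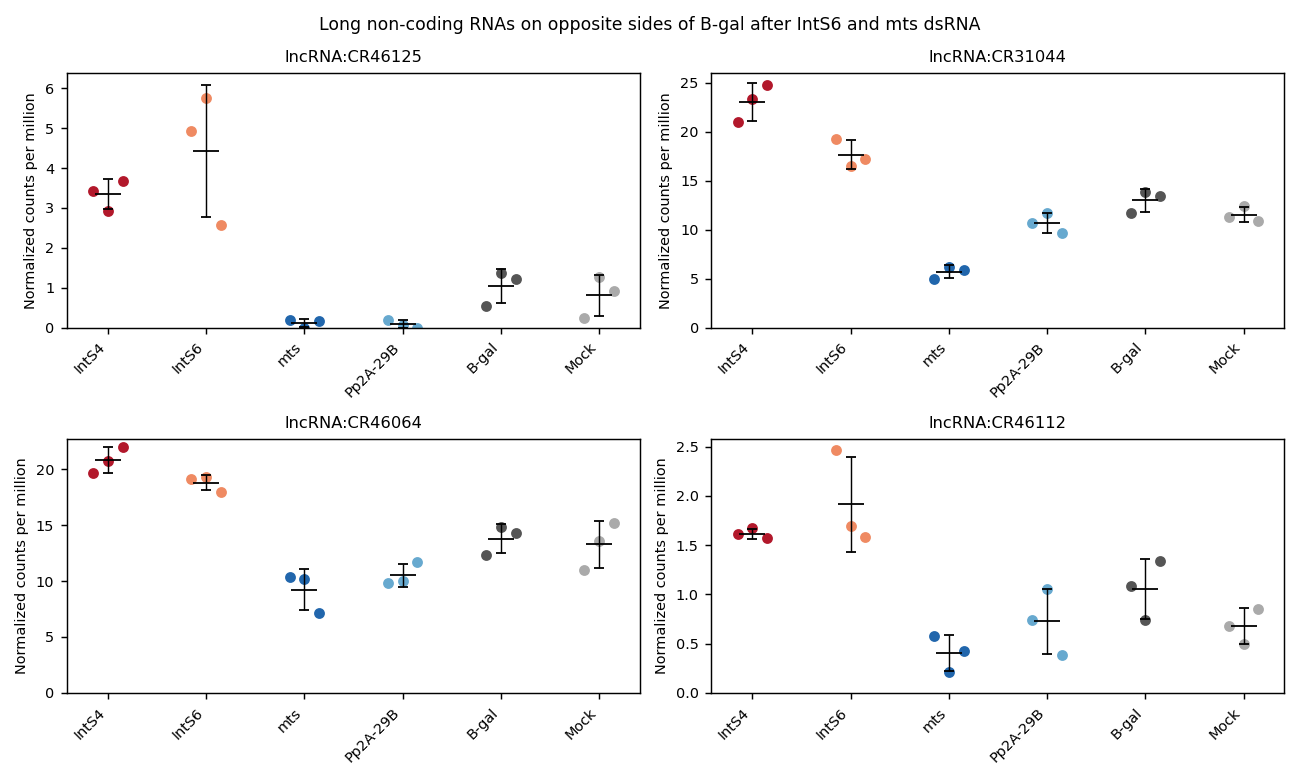
TMM-normalized CPM (y axis, from 0) of 4 lncRNAs in each library by dsRNA group as labelled (x axis). Points are replicate sets A, B and C, marks are means and bars SD (n = 3). In each panel the 3 IntS6-labelled libraries lie above the 3 B-gal libraries and the 3 mts libraries below them.

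A few RNAs owe their place in the list to the depletion libraries. Neither control group reached 1 CPM for 6 of the 113: CR44285, flam, CR45639, CR43973, CR44522 and CR45471. They had to be higher elsewhere to be chosen, so their values are given without a count. A further 3, CR46125, CR46112 and CR44784, reached 1 CPM in one control group only and had a mean under it over both. CR44285, 118 bases from the glutathione transferase gene GstT1 and divergent from it, had 5.40, 5.46 and 6.16 CPM in IntS4-labelled libraries, against 0.409, 0.568 and 1.22 CPM in B-gal libraries (log2 2.91, or 3.50 without B-gal library C). CR43973 on 3L had 2.38, 2.75 and 3.21 CPM in mts libraries, against 0.341, 0.965 and 0.779 CPM in B-gal libraries (log2 1.95). It lies opposite the coding gene Ctps without a shared exon base, and whether the counting used the strand is not stated. CR44522 on 3L had 1.82, 1.97 and 2.16 CPM in IntS4-labelled libraries, against 0.273, 0.341 and 0.835 CPM in B-gal libraries (log2 1.99, or 2.65 without B-gal library C). CR45639 had 1.61, 2.04 and 3.24 CPM in Pp2A-29B libraries, against 1.02, 0.908 and 0.724 CPM in B-gal libraries (log2 1.37), and 29.16% of its exon bases also belong to exons on the other strand. CR45471 had 1.61, 1.72 and 2.62 CPM in IntS4-labelled libraries, against 0.546, 0.114 and 1.34 CPM in B-gal libraries (log2 1.55). That call was lost without IntS4-labelled library B (1.65) or C (1.30) or B-gal library A (1.43) or B (1.03), the value was 2.62 without B-gal library C, and 82.18% of its exon bases also belong to exons on the other strand.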

How the data were processed

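Estimated counts for each gene and library came as a single table that the authors deposited, with FlyBase gene IDs. Per the submitters' processing notes, Trimmomatic 0.39 and featureCounts were used with the dm6 (BDGP6) genome; the aligner, its settings and the strand setting of the counting are not given in the sources used here. Of the deposited values 90.13% were whole within 0.005, and 76.4% of those of the 113 lncRNAs, so the counts are estimates and were rounded to whole numbers. Of 17753 IDs, 17625 matched a symbol in a FlyBase name table; the other 128 (0.48% of counts) stayed in. Gene positions, exon lengths and overlaps came from an Ensembl annotation of BDGP6, matched by FlyBase ID, not from the authors' files.

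All 18 libraries entered 1 fit of 6 group means with edgeR 4.0.16 (limma 3.58.1, R 4.3.3), TMM scaling, filterByExpr with a minimum count of 10 and two-sided quasi-likelihood tests, adjusted by Benjamini-Hochberg over 8699 genes; log2 fold changes have standard errors from that test. Python 3.11.15 made the tables. The fit was tested on simulated data. Alternatives were DESeq2 1.42.0, library totals, no filter, no rRNA rows, only the 2 groups compared, a replicate block and leaving out each library. Replicate sets pair libraries where every same-letter correlation exceeded 0.1. This held for B-gal against Mock, IntS4 and IntS6 against B-gal and Pp2A-29B against mts (lowest 0.102). It did not hold for mts (lowest 0.0807) or Pp2A-29B (−0.00302) against B-gal or for the other comparisons. The main fit leaves the pairing out for every comparison, including those where it held. With the replicate block, 216 log2 fold changes of named lncRNAs kept direction and side of the threshold and 2 gained a call. The labels call the replicates biological sets, without saying that they are separate cultures.

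The members, lists and classes were chosen with earlier results of these data known. Genes named in the text are lncRNAs with a given name, the 8 highest by CPM and by CPM per kilobase, the 6 highest and 6 lowest called fold changes without overlap in each comparison with B-gal (4 in others), those nearest the level, those under it in both controls, those called the same way in every depletion, small RNA hosts and lncRNAs on opposite sides of B-gal. The lists were 5 MSL genes, 7 omega speckle genes, 8 snoRNP, 11 exosome and 7 decay genes, and blood, neuron, muscle, fat body and ovary markers.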

Additional observations from a re-analysis of the deposited data

Results flagged for a closer look

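The lncRNAs below were singled out because they were called on opposite sides of B-gal in mts and IntS6-labelled libraries and were called in the direct comparison of those groups by edgeR's quasi-likelihood test. The mts minus IntS6-labelled log2 difference was −5.11 for lncRNA:CR46125, −2.22 for lncRNA:CR46112, −1.64 for lncRNA:CR31044 and −1.02 for lncRNA:CR46064. In the IntS6-labelled libraries IntS6 counts were higher, not lower, than in B-gal libraries, so counts cannot show the depletion there. The choice of RNAs with opposite calls fixes the sign of these differences, and lncRNA:CR46125 and lncRNA:CR46112 reached the list through their levels in the Integrator-labelled libraries, so the values are a description.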

How the results depend on the processing

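Alternatives were computed for 218 log2 fold changes of named lncRNAs, 2613 values in all: 2383 kept direction and side of the threshold, 179 lost the call, 13 gained one and 38 changed sign. Leaving out 1 library ended 47 calls and other settings 21. For IntS6-labelled against IntS4-labelled libraries, higher calls numbered 1 and lower calls 8 both without the count filter and with the replicate block, and 0 to 1 and 2 to 4 without 1 library. For Pp2A-29B against mts libraries, higher calls numbered 9 in a fit of only those groups and 7 to 15 without 1 library, and lower calls 1 with library totals and 0 to 1 without 1 library. For mts against IntS6-labelled libraries, higher calls numbered 9 with library totals and 10 to 14 without 1 library, and lower calls 36 of the 77 lncRNAs at 2 CPM or more (46.75%, against 48.67% of the 113). Pp2A-29B against IntS6-labelled libraries had 22 lower of these 77 (28.57%, against 31.86% of the 113), so the smaller counts come with fewer lncRNAs counted. With the replicate block CR42862 was called lower in mts (log2 −0.42) and Pp2A-29B (−0.45) libraries, comparisons that the correlations do not pair, and the block ended no call of a named lncRNA.

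The values that changed sign were all uncalled, and the cause was not tested. With library totals roX1 was −0.01 in IntS4-labelled, noe −0.02 in IntS6-labelled, CR34335 −0.25 and CR43459 −0.27 in mts libraries. Without the filter noe was −0.01 in IntS6-labelled and CR43459 0.01 in Pp2A-29B libraries, and without rRNA rows CR43459 was 0.02 there. Leaving out 1 library gave, in IntS4-labelled libraries, −0.07 to 0.21 for roX1 and −0.37 to 0.27 for roX2. In IntS6-labelled libraries it gave −0.04 to 0.24 for roX1, −0.55 to 0.05 for roX2, −0.18 to 0.08 for Hsromega, −0.11 to 0.17 for CR34335, −0.07 to 0.03 for CR40469, −0.19 to 0.09 for marge and −0.12 to 0.16 for noe. In mts libraries it gave −0.11 to 0.17 for CR34335, −0.05 to 0.08 for CR43459 and −1.14 to 0.33 for flam. In Pp2A-29B libraries it gave −0.25 to 0.03 for CR34335, −0.25 to 0.08 for CR40469, −0.09 to 0.03 for CR43459, −0.26 to 0.01 for roX2 and −0.02 to 1.45 for flam. Depth limits lncRNAs near 1 CPM, where a group holds a few counts.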
